A study of Mus musculus with 9 samples.

Results

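This account concerns stretches of DNA carrying 5-hydroxymethylcytosine (5hmC) that were called as peaks in wild-type but not in Tet2 knockout mouse macrophages and that lie several to a gene. A peak was a member if it lay on chromosomes 1 to 19 or X, carried a wild-type but no knockout call, and overlapped the GRCm38 body of a gene holding 3 or more such peaks. Of 9151 listed peaks, 7042 were called in wild type only on those chromosomes, 4921 of these overlapped a gene body, and 1347 lay in the 357 genes that hold 3 or more. These are called multi-peak genes below. The cells were macrophages treated with M-CSF, at passage 0, labelled either Tet2 Knockout or Wild-Type, with 2 libraries of each genotype for 5hmC and 2 knockout and 3 wild-type libraries for ribosomal-RNA-depleted total RNA. Age, sex, tissue of origin and the construction of the knockout allele are not stated in the labels, nor is it stated whether libraries came from separate animals, so spreads and p-values describe these libraries and may be technical. A knock-in feature in the RNA table was counted 1452 and 2245 times in knockout and 0 times in each wild-type library. Another knock-in feature did not separate the genotypes, with 1 and 3 counts in knockout against 0, 6 and 3 in wild type. Counts over the whole Tet2 gene were not lower in knockout (232 and 126 against 86.2, 144 and 41.6 counts per 1000000 counts in genes, CPM).

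The TET2 protein converts 5-methylcytosine to 5hmC by oxidation, and its gene is often mutated in myeloid blood cells. 5hmC is an intermediate of DNA demethylation that also persists as a mark of its own. It is known to be found mainly in the bodies and enhancers of transcribed genes and to be scarce at CpG-rich promoters. The modified base sits at CpG dinucleotides, so the number of CpGs in a peak bounds the sites at which it can be present.

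Few member peaks touched a promoter, and the sequences of those that covered one are shown because they are the member DNA for which reference sequence was at hand. Of 1298 member peaks on chromosomes that the start table covers, 58 (4.47%) lay within 2 kb of an annotated start and 14 (1.08%) overlapped a window from 250 bases before to 50 after a start. The corresponding shares within 2 kb were 9.09% for wild-type-only peaks in genes holding 1 or 2 of them, 4.39% for those outside genes, 8.48% for peaks called in both genotypes and 14.4% for peaks called in knockout only. The start table is not complete, so these shares are lower limits. For 3 genes, predicted genes aside, a member peak covered the whole 300-base window. The RefSeq sequences (GRCm38.p6) follow 5′ to 3′ on the strand of the gene, with each CpG in capitals:

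St6gal1: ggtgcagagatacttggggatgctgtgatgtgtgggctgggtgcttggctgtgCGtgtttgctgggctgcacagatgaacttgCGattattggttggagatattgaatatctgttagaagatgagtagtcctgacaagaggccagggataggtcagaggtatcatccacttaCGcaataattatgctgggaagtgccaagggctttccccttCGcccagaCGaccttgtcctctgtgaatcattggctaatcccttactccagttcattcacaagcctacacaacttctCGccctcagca

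Nod1: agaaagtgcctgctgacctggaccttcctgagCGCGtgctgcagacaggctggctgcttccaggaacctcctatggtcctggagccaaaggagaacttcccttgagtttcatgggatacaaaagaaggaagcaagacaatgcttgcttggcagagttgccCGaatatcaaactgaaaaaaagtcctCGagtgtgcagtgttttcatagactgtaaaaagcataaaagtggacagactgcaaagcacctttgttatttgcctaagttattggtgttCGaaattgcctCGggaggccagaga

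Cdk15: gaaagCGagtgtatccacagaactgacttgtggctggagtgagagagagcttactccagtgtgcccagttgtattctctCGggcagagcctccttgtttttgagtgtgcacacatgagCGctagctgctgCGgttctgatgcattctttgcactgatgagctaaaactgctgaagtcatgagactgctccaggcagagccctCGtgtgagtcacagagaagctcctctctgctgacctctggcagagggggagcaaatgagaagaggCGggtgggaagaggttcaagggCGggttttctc

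The St6gal1 window (chr16:23290220-23290519, plus strand) has 6 CpGs, as has the Nod1 window (chr6:54971612-54971911, minus strand), and the Cdk15 window (chr1:59256656-59256955, plus strand) has 7. The median of all 32817 windows is 7, and 56.4% of windows have 6 or more CpGs and 52.1% have 7 or more, so none of these is a CpG-rich promoter. St6gal1 encodes the enzyme that adds terminal sialic acid to N-glycans, and its start lies inside its gene body as an alternative start. The peak over it (chr16:23290121-23290635) had 4 and 3 counts in knockout libraries 1 and 2 and 6 and 40 in wild-type libraries 1 and 2. Nod1 encodes a cytosolic receptor for bacterial peptidoglycan, and the peak at its start (chr6:54971607-54972061) had 0 and 2 counts in knockout against 5 and 21 in wild type. Cdk15 encodes a cyclin-dependent kinase, and the peak at its start (chr1:59256603-59257015) had 0 and 0 counts in knockout against 2 and 23 in wild type. Raw counts of wild-type library 2 cannot be read against the others without scaling, because that library held 219116 counts in listed peaks against 42678 to 46230 in the other 3. The letters TGTGGT, the core of the RUNX motif, occur in none of the 3 windows on either strand. They occur in 6 of 15 windows that overlap a member peak and in 16.8% of all windows, both strands searched. Such matches describe letters only, and 2 of the 15 windows differ by 1 base in position.

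The values of the member peaks between genotypes are given as a description without a test, since the peaks were chosen by their calls in the same libraries. A level below is counts per 100000 peak counts after scaling each library by TMM over all listed peaks. Summed over the 1347 member peaks, the level was 9201 (exact 95% Poisson interval 8908 to 9502) in knockout library 1 and 9345 (9033 to 9665) in knockout library 2. It was 13771 (13441 to 14106) in wild-type library 1 and 13619 (13477 to 13761) in wild-type library 2. Both wild-type libraries were thus above both knockout libraries, and the intervals, which cover counting error only, overlapped within a genotype and not between genotypes. Over the member peaks, knockout libraries 1 and 2 were closer to each other than counting noise gives (chi-square 0.520 per degree of freedom, 686 peaks), so they were counted as 1 sample and their levels averaged. The wild-type pair differed by about as much as counting gives (0.980 over 1347 peaks). Among listed peaks of all classes with enough counts, that pair differed by more than counting gives (1.65 per degree of freedom, 3005 peaks). The knockout level was 0.677 times the wild-type level.

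That ratio depends on the scaling of the libraries. It was 0.506 with plain total counts and 0.250 when the libraries were scaled to the peaks called in both genotypes, which took 32.7% of the listed counts in each knockout library, 19.4% in wild-type library 1 and 16.2% in wild-type library 2. The member peaks' share of all wild-type-only counts needs no such scaling. It was 19.7% (Clopper-Pearson 95% interval 19.1 to 20.3) and 19.5% (18.9 to 20.1) for knockout and 21.2% (20.7 to 21.6) and 20.7% (20.5 to 20.9) for wild type. The knockout shares were 1 to 2 percentage points lower, so within the wild-type-only peaks slightly less of the knockout signal lay in multi-peak genes.

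The counts behind single peaks were small. Median counts per member peak were 2 and 2 for knockout and 4 and 24 for wild type, and 97 peaks (7.20%) had 0 counts in both knockout libraries. A count of 0 allows a level of up to 7.42 in knockout library 1 alone, 8.26 in knockout library 2 alone and 3.91 when it holds in both (3 counts over both libraries), against a mean wild-type level of 9.09 to 10.5 per peak across the classes of genes below. At this depth 0 counts in 1 knockout library therefore do not separate a peak from one at most of the wild-type mean. The limit of 3.91 lies below that mean, but it takes the 2 knockout libraries as independent counts. They were closer to each other than counting noise gives, so 0 in both may not separate such a peak either. Both wild-type levels exceeded both knockout levels at 698 of 1347 member peaks (51.8%), against 36.1% of the 9093 listed peaks of all classes on the same chromosomes. That percentage stands beside the contrast that chose the peaks and carries no test.

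Across genes the wild-type level per peak was higher where there were more peaks, while the knockout level was not. Genes with 1 wild-type-only peak had a mean level per peak of 9.09 in wild type and 6.85 in knockout (ratio 0.753). Just below the threshold, genes with 2 peaks had 9.46 and 6.93 (0.732), and just above it genes with 3 had 10.1 and 7.08 (0.702). Genes with 4 had 9.87 and 6.50 (0.659), those with 5 had 10.4 and 6.95 (0.666), and the 41 genes with 6 or more had 10.5 and 6.77 (0.647). The threshold of 3 thus falls within a gradual change and marks no step. Median gene length also went up with peak number, from 37.5 kb for 1 peak to 332 kb for 6 or more, and the part of length in the ratio was not tested.

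**Figure D1:**
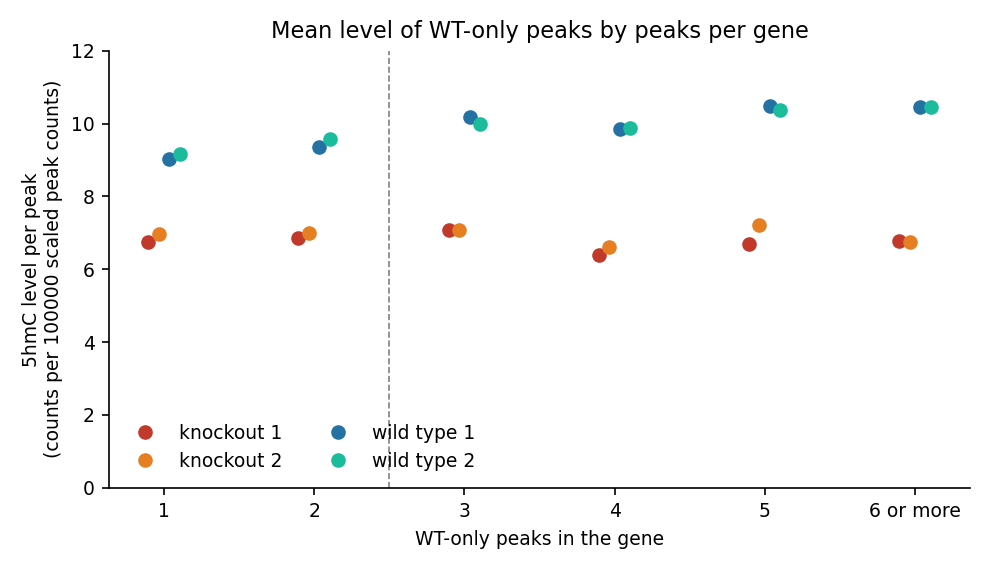
Mean 5hmC level per wild-type-only peak (vertical axis, counts per 100000 scaled peak counts) by the number of such peaks in the gene (horizontal axis), 1 point for each library. The dashed line marks the threshold of 3 peaks. Wild-type points lie between 9.03 and 10.5, lowest at 1 peak, and knockout points lie between 6.40 and 7.22.

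The multi-peak genes were long genes. Their median body was 173 kb (range 21.9 to 1485 kb), against 44.4 kb for genes with 1 or 2 wild-type-only peaks and 17.3 kb for all 21631 protein-coding genes, and 279 of 357 spanned 100 kb or more. They comprised 340 protein-coding genes, 16 long non-coding RNA genes and 1 transcribed pseudogene on all 19 autosomes, with 0 on X. Their peaks were spread along the gene rather than bunched. The median gap between neighbouring peaks of a gene was 25.7 kb (quartiles 11.3 and 54.7 kb), and 66 of 1003 gaps (6.58%) were under 5 kb. In the 284 genes with a known strand, the 5 equal segments of the gene body, in order from the 5′ end, held 21.1%, 22.0%, 21.0%, 17.9% and 17.9% of peaks. Exons and introns were not used here.

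Lpp, which encodes a LIM-domain protein of focal adhesions, held the most peaks. Its 12 wild-type-only peaks lay between 15.8% and 97.8% of the way along the gene (chr16:24393350-24992578, 599 kb). Their counts summed to 22 and 26 in knockout and to 71 and 346 in wild type, or levels of 54.4 and 71.6 against 147 and 133, a ratio of 0.449. Both wild-type levels were well above both knockout levels. All 12 peaks had a knockout level below the wild-type mean, with ratios from 0 to 0.879. The peak at 38.9% of the gene (chr16:24626139-24626500) had 0 and 0 counts in knockout against 7 and 29 in wild type, and the peak at 93.4% (chr16:24952980-24953376) had 0 and 1 against 8 and 36.

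**Figure D2:**
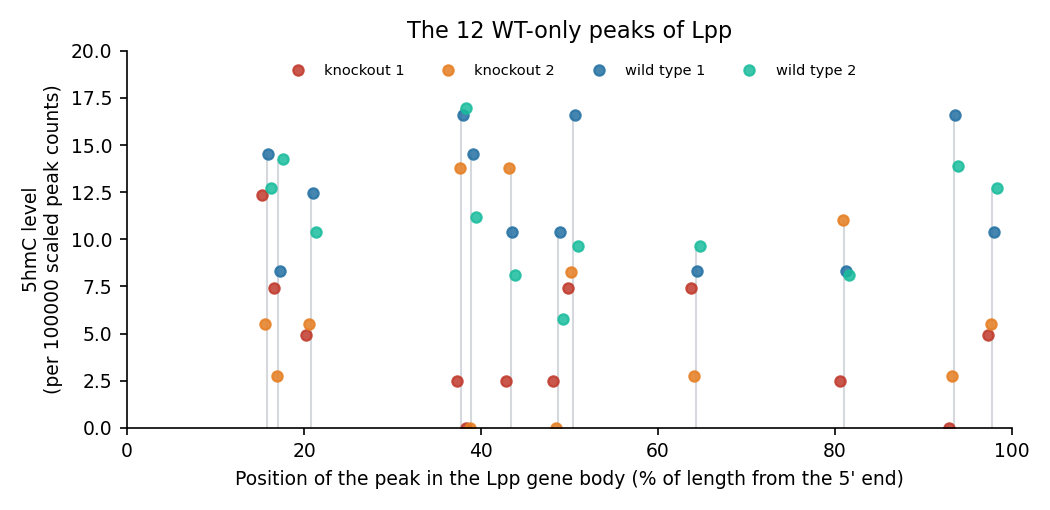
5hmC level (vertical axis, counts per 100000 scaled peak counts) at each of the 12 wild-type-only peaks of Lpp against the position of the peak in the gene (horizontal axis, percent of length from the 5′ end), 1 point for each library, set side by side. Points at 0 are libraries with no count, as both knockout libraries are at 38.9%.

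Foxp1 and Atxn1 came next by number of peaks. Foxp1, a forkhead transcription factor of blood cell development, held 10 peaks in 597 kb (chr6:98925342-99522746), with summed counts of 25 and 24 in knockout against 33 and 265 in wild type (ratio 0.750). Its peaks were uneven. The 3 peaks at 30.1%, 31.3% and 44.0% of the gene had at most 1 count in any knockout library against 3 to 6 and 18 to 27 in wild type, while the peak at 6.11% had 6 and 10 counts against 6 and 50 and a ratio of 1.34. Atxn1, which encodes the chromatin-associated protein ataxin 1, held 9 peaks, with 30 and 26 counts in knockout against 51 and 290 in wild type (ratio 0.670). The single-peak ratios in Atxn1 went from 0.249 to 1.09.

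The other genes named for their number of peaks held 7 or 8, and of the 9 genes with 7 the 4 with the most wild-type counts were taken. Prkch, which encodes protein kinase C eta, held 8 peaks (ratio 0.670). Tns3, which encodes the focal adhesion protein tensin 3, also held 8, with 41 and 31 knockout and 52 and 259 wild-type counts and a ratio of 0.899. Ssh2, a phosphatase that activates the actin-severing protein cofilin, held 8 (ratio 0.741). Maml3, a coactivator of Notch, and Aopep, an aminopeptidase, held 8 each (ratios 0.672 and 0.655). Fndc3b, a fibronectin-domain membrane protein, and Chn2, which encodes the Rac-inactivating protein beta-chimaerin, held 7 each (0.688 and 0.638).

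App and Tiam1, with 7 peaks each, had the lowest and the highest ratio of the 4 so named on the TMM scale. App, which encodes the amyloid precursor protein, had 19 and 15 counts in knockout against 48 and 202 in wild type, a ratio of 0.498. Tiam1, which encodes an activator of Rac, had 35 and 29 counts in knockout against 27 and 196 in wild type, a ratio of 1.27. In Tiam1 the peak nearest the 5′ end, at 2.23% of the gene, had 10 and 10 knockout counts against 6 and 31, and 4 of the 7 peaks had ratios above 1. The ratio of Tiam1 turned with the scaling, to 0.943 with total counts and 0.458 with scaling to peaks called in both genotypes.

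Per gene, the ratio had a median of 0.667 with quartiles of 0.521 and 0.824. It was below 1 in 322 genes and at least 1 in 35. The knockout mean lay below both wild-type libraries in 291 of 357 genes, where the same held for 60.6% of the 3681 genes with any wild-type-only peak. Of those 3681 genes, 2753 held 1 such peak, so most of their sums rest on fewer peaks than those of members. The part of this in the difference was not tested. The spread of the log2 ratio between genotypes (SD 0.58) was larger than the counting value (0.43). That value takes the 2 knockout libraries as independent, so it may be too low. Whether the spread exceeds counting error therefore cannot be told. The spread of wild-type library 1 over library 2 (SD 0.39) was at the counting value (0.40), and that of knockout library 1 over library 2 (SD 0.58 over 356 genes) was below it (0.77).

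The lowest ratios, among genes with 60 or more wild-type counts, came from Ubn2, Zranb3, Gmds, Nf1 and Mboat1. Ubn2, a subunit of the HIRA histone chaperone complex, held 4 peaks with 0 and 1 counts in knockout against 15 and 56 in wild type. By summed counts that is a ratio of 0.0565 with a 95% counting interval of 0.00141 to 0.325. This interval and the next ones take the 2 knockout libraries as independent, so they may be too narrow. The single knockout count was in the peak at 56.7% of the gene, and the other 3 peaks had 0 in both knockout libraries. Zranb3, a DNA translocase of replication fork repair, had 1 and 2 counts against 14 and 75 over 3 peaks (0.135, interval 0.0274 to 0.408). Nf1, the Ras-inactivating protein neurofibromin, had 1 and 3 against 11 and 68 (0.203, interval 0.0540 to 0.541). Gmds, an enzyme of GDP-fucose synthesis, and Mboat1, a lysophospholipid acyltransferase, had 2 and 2 knockout counts each. These 5 genes were picked as the extremes of 357.

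The highest ratios came from Zdhhc18, Apbb2, Itch, Rgs10 and Tpd52. Zdhhc18, a palmitoyltransferase, had 20 and 22 counts in knockout against 14 and 107 in wild type over 3 peaks (ratio 1.57), and each of its peaks had a ratio above 1. Itch, a ubiquitin ligase of immune tolerance, had 14 and 14 against 12 and 73 (1.38). Rgs10, a regulator of G-protein signalling, had 13 and 15 against 11 and 85 (1.32). Apbb2, a binding partner of the amyloid precursor protein, had a ratio of 1.45, and Tpd52 had 1.32. In each of these 5 the knockout mean was above the mean of the wild-type libraries on this scale. With total counts the ratios were 1.16 for Zdhhc18, 1.08 for Apbb2, 1.03 for Itch, 0.982 for Rgs10 and 0.984 for Tpd52, and under scaling to peaks called in both genotypes 356 of the 357 genes had the knockout mean below both wild-type libraries.

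**Figure D3:**
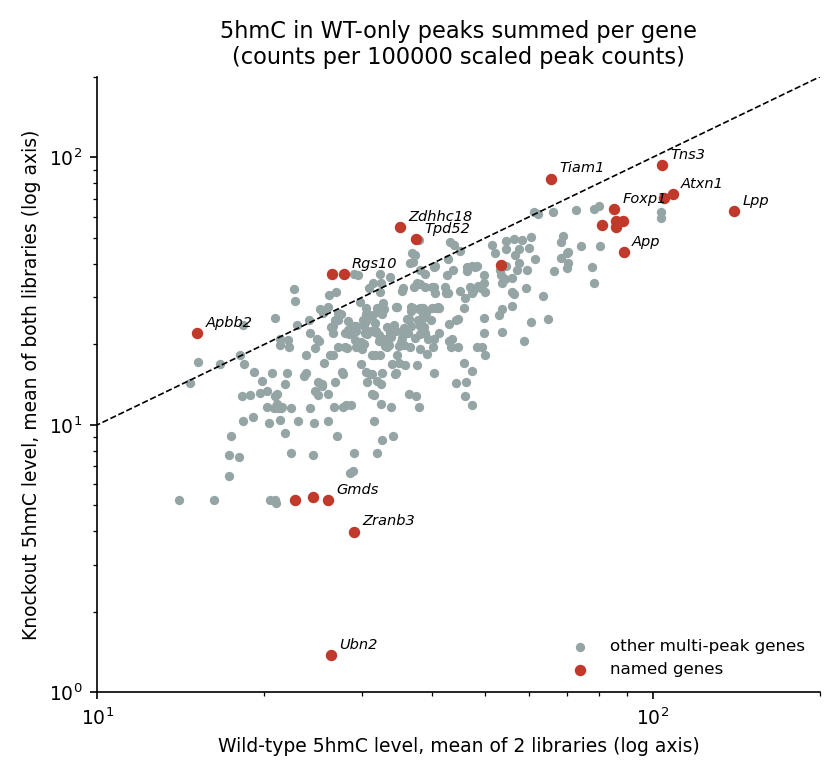
5hmC level summed over the wild-type-only peaks of each of the 357 multi-peak genes in knockout (vertical axis) against wild type (horizontal axis), both on log axes in counts per 100000 scaled peak counts. The dashed line is equality, and red points are the genes named for their number of peaks or for the lowest and highest ratios. Below the line lie 322 genes, with Ubn2 farthest below and Zdhhc18 farthest above.

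A few short genes also reached 3 peaks. Sirt2, an NAD-dependent deacetylase, had the highest density, 13.7 peaks per 100 kb in 21.9 kb, with 10 and 9 knockout and 8 and 82 wild-type counts (ratio 1.03, and 0.762 with total counts). Tmem38b, a cation channel of the endoplasmic reticulum, had 11.1 peaks per 100 kb (ratio 0.752), Selenof, a selenoprotein of the endoplasmic reticulum, 11 (0.658) and Fbxo28, an F-box protein, 10.5 (1.06, and 0.789 with total counts). Zdhhc18 had 10.4 and the kinase gene Stk17b 10.1 (0.964). The median over all multi-peak genes was 2.21 peaks per 100 kb. Across multi-peak genes the number of peaks and the body length had a Spearman correlation of 0.375 (n = 357, a description in which long genes have more room for peaks).

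Of the member peaks, the one with the most wild-type counts was in Rptor, which encodes the mTORC1 subunit raptor (chr11:119792775-119793641), with 9 and 11 counts in knockout against 25 and 104 in wild type. Next was Galnt7, a glycosyltransferase that starts O-glycans (chr8:57540796-57541848), with 10 and 8 against 26 and 90. Lrp1, a scavenger and efferocytosis receptor of macrophages, held 2 of the strongest, with 15 and 10 against 18 and 92 at chr10:127592430-127593215 and 9 and 9 against 12 and 88 at chr10:127599351-127600257. The adhesion gene Cadm1 had 9 and 7 against 12 and 85. Clmp and Map3k20 were tied for the sixth place, with 5 and 4 against 15 and 79 and 7 and 3 against 16 and 78. The knockout to wild-type ratios of these peaks went from 0.380 in Clmp to 0.888 in the former Lrp1 peak.

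Other peaks in the same genes were examined because they were not used to choose the members. Of the 357 genes, 70 also held a peak called in both genotypes, 69 held a peak called in knockout only, and 229 held neither. The 84 peaks called in both genotypes inside multi-peak genes had summed levels of 1665 and 1528 in knockout against 1152 and 1136 in wild type, so both knockout libraries were higher (ratio 1.4). The ratio of such peaks was 1.67 in genes with 1 or 2 wild-type-only peaks (213 peaks), 1.96 in genes with none (378) and 3.38 outside genes (267), where the wild-type libraries themselves stood apart at 7859 and 4782. For peaks called in knockout only the ratios in the same order were 3.50 (76 peaks), 4.29 (230), 5.05 (472) and 5.30 (331). In both classes the ratio was lowest in multi-peak genes. The order needs no scaling between libraries, but the value of 1.4 does: it was 1.04 with plain total counts and 0.515 with scaling to peaks called in both genotypes. The called state is part of the rule for all of these peaks, so no test was made.

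Gene lists show which kinds of genes were multi-peak. Of 86 genes of MAP kinase, PI3 kinase and phosphatase signalling, 18 (20.9%) were multi-peak. Of 51 myeloid and RUNX-related transcription factors 8 (15.7%) were, and of 56 ubiquitin ligases and deubiquitinases 6 (10.7%). Chromatin regulators had 3 of 68 (4.41%), TET enzymes and DNA methylation machinery 1 of 25 (4%), inflammatory receptors and cytokines 3 of 81 (3.70%), and RANK signalling and osteoclast genes 1 of 45 (2.22%). The share was 1.57% of all protein-coding genes and 11.2% of the 2427 protein-coding genes of 100 kb or more. Median gene lengths were 91.8, 67.5 and 92.8 kb in the former 3 lists and 81.5, 32.3, 25.4 and 28.7 kb in the latter 4, so lists with higher shares mostly held longer genes, and the part of length in the shares was not tested. None of the marker genes of macrophages, osteoclasts, stromal cells, B cells, T and NK cells, granulocytes, dendritic cells, or megakaryocytes and erythroid cells was multi-peak.

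The transcription factor group held Foxp1 and 7 others. Mitf, a regulator of osteoclast and lysosome genes, had 6 peaks (ratio 0.879), and Bach2, a repressor of lymphoid and myeloid genes, had 5 (0.968). Etv6, an ETS-family repressor, had 4 peaks with 13 and 6 knockout and 31 and 147 wild-type counts (0.402), the lowest ratio of the group. Runx1, which is required for blood stem cell formation, had 4 peaks with 14 and 15 against 18 and 130 (0.868). Tcf4, a basic helix-loop-helix factor of dendritic cells, had 4 (0.534), Zeb2, a factor of macrophage identity, 3 (0.898), and Arid5b 3 (0.640). Dnmt3a, which methylates DNA de novo and so makes the substrate of TET2, had 3 peaks with 14 and 14 against 18 and 105 counts (0.941). Nfkb1, the p105 and p50 subunit of NF-kappaB, had 4 with 16 and 15 against 18 and 93 (1.11, and 0.826 with total counts).

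RNA is independent of the rule and was tested over all genes with edgeR's quasi-likelihood test and Benjamini-Hochberg adjustment. Library totals ran from 16053426 to 56394358 counts in genes. Macrophage markers were abundant in all 5 libraries (summed 17213 to 31837 CPM over 13 genes, each above 1 CPM in at least 1 library). Stromal and osteoblast markers summed to 7243 CPM in wild-type library 3 against 4.10 to 10.7 CPM in the other 4, with 2 of 14 markers under 1 CPM in every library. Dendritic cell markers had a lower sum in knockout, at 23.0 and 12.4 CPM over 7 genes against 230, 177 and 72.6. Of the 7, 3 were under 1 CPM in every library. Gene by gene most went the other way, with 5 of the 6 tested genes higher and 1 lower in knockout (median fitted log2 1.02). Megakaryocyte and erythroid markers also had a lower sum, at 47.1 and 39.5 CPM over 9 genes against 209, 86.0 and 212. The 4 genes tested were all lower in knockout, and 5 of the 9 were under 1 CPM throughout. The part of these markers in the RNA differences below was not tested. Because of the stromal markers, counts of genes below are also given without wild-type library 3. The part of stromal RNA in them was otherwise not tested. Fewer cells of a type and less RNA per cell cannot be told apart in bulk samples.

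Multi-peak genes were nearly all expressed. Of the 357 genes, 344 had a row in the RNA table and 335 (93.8%) passed the filter on low counts, against 70.3% of genes with 1 or 2 wild-type-only peaks. Among protein-coding genes of 100 kb or more, 97.0% of 271 multi-peak genes passed, 84.1% of 693 genes with 1 or 2 peaks and 42.7% of 1463 genes with none. Among long genes, those holding more wild-type-only peaks were thus more often expressed.

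Calls between genotypes at an adjusted p of 0.05 depended on the tool. edgeR called 0 of 335 multi-peak genes, with a background of 0.0135% (2 of 14851 genes), and the smallest adjusted p among members was 0.138 (edgeR). limma-voom called 0, and DESeq2 called 47 (14%), 18 higher and 29 lower in knockout, against a background of 8.22% (3.4% higher and 4.83% lower). At an unadjusted edgeR p below 0.05 there were 73 members (21.8%), 29 higher and 44 lower, against 13.8% of all tested genes (5.95% higher and 7.86% lower). The share was 17.4% in genes with 1 or 2 wild-type-only peaks, 26.8% with 4 or more, 29.0% with 5 or more and 16.5% in long protein-coding genes with none. Without wild-type library 3 it was 100 of 334 (29.9%) against 17.7% of all genes, with edgeR again calling 0. It was 25 of 339 (7.37%) against 3.46% without knockout library 1 and 50 of 338 (14.8%) against 6.67% without knockout library 2, so the number that pass rests on having both knockout libraries. The median library count of tested genes was 2374 in members, 2282 in genes with 4 or more peaks and 2528 with 5 or more. It was 1485 in genes with 1 or 2 peaks, 510 in long genes with none and 655 over all genes. Genes with more counts pass a test more easily. The part of count depth in these shares was not tested.

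The direction of RNA was mixed. The median fitted log2 change of the 335 genes was -0.04, against -0.03 for all genes, and 155 were higher and 180 lower in knockout. Libraries did not overlap between genotypes in 142 members (42.4%; 58 higher and 84 lower), where 36.2% of all tested genes did not (17.2% higher and 19% lower). The 5hmC ratio of a gene, as measured, told little of its RNA change. Much of the spread of the log2 5hmC ratio was counting error, which can hide a relation. Of the SD of 0.58, counting gives 0.43 if the 2 knockout libraries are independent, and more if they are not. Across the 335 genes, the log2 5hmC ratio and the RNA log2 change had a Pearson r of 0.04 and a Spearman correlation of 0.07, as a description in which all genes share the same libraries. In the 168 genes with the lower 5hmC ratios (median 0.533) the median RNA log2 change was -0.06 and 37 had an unadjusted p below 0.05. In the 167 with the higher ratios (median 0.828) the values were -0.01 and 36.

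**Figure D4:**
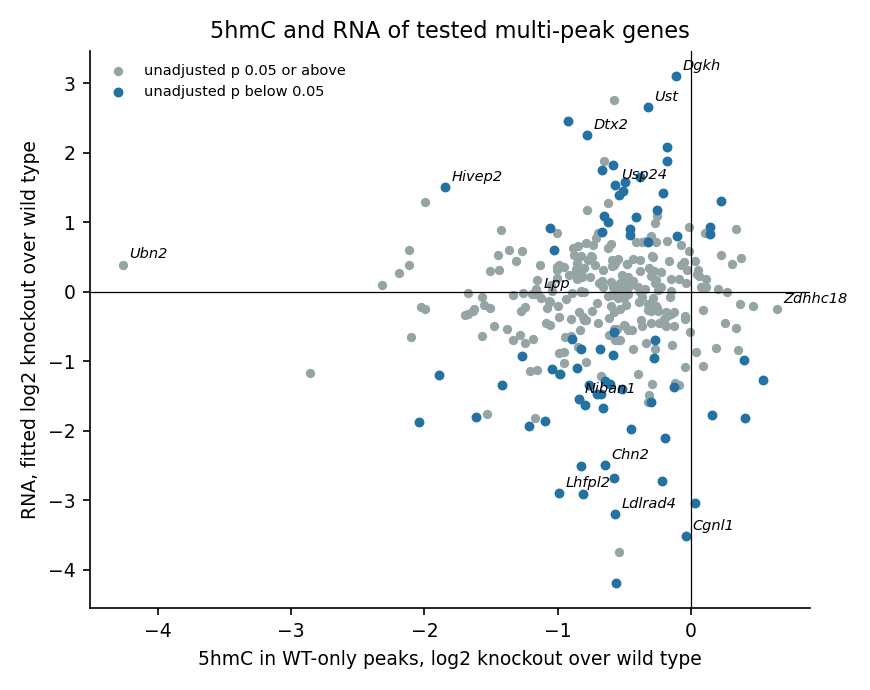
Fitted RNA log2 change (vertical axis, knockout over wild type) against the log2 ratio of 5hmC in wild-type-only peaks (horizontal axis) for the 335 tested multi-peak genes. Blue points have an unadjusted edgeR p below 0.05 (73 genes), and they lie on both sides of 0 (29 higher and 44 lower). Across the 335 genes r = 0.04.

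Of the members lower in knockout RNA without overlap, Cgnl1 had the smallest unadjusted p. Cgnl1, which encodes the junction protein paracingulin, had knockout RNA at 5.19 and 5.14 normalised CPM and wild-type RNA at 82.2, 41.7 and 52.6 (log2 -3.51 ± 0.39 SE; edgeR adjusted p = 0.138). All 3 wild-type libraries were far above both knockout libraries, and its 3 peaks had 10 and 12 against 16 and 68 counts of 5hmC. The 5hmC ratio was 0.973 on the TMM scale, 0.728 with total counts and 0.363 with scaling to peaks called in both genotypes. Iqgap2, a scaffold for Rac and Cdc42, was at 20.5 and 12.9 against 165, 67.9 and 143 normalised CPM (log2 -2.91; edgeR adjusted p = 0.173), with a 5hmC ratio of 0.571. Chn2, with its 7 peaks, was at 1.83 and 4.34 against 15.2, 18.2 and 19.1 normalised CPM (log2 -2.50; edgeR adjusted p = 0.183). Chn2 was the only one of the 12 genes with the most peaks that was also among the 12 genes named by their RNA.

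Lhfpl2, Ldlrad4 and Niban1 complete the lower side. Lhfpl2, a tetraspan membrane protein, had knockout RNA at 60.1 and 79.3 normalised CPM and wild-type RNA at 718, 294 and 541 (log2 -2.89; edgeR adjusted p = 0.166). Ldlrad4, an inhibitor of TGF-beta signalling, was at 0.611 and 1.33 against 8.75, 7.99 and 10.4 (log2 -3.20; edgeR adjusted p = 0.162). Niban1 was at 45.1 and 34.1 against 98.9, 130 and 118 (log2 -1.55; edgeR adjusted p = 0.162). Their 5hmC ratios were 0.504, 0.675 and 0.558. St6gal1, whose promoter window is printed above, was at 8.73 and 32.0 against 157, 112 and 78.6 normalised CPM (log2 -2.50; edgeR adjusted p = 0.237, DESeq2 adjusted p = 0.00337). In all 4 genes every wild-type library was above every knockout library.

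On the higher side, Dgkh, diacylglycerol kinase eta, had knockout RNA at 258 and 158 normalised CPM and wild-type RNA at 18.1, 38.2 and 16.2 (log2 3.10; edgeR adjusted p = 0.162), with a 5hmC ratio of 0.925. Ust, a sulfotransferase of dermatan and chondroitin sulfate, was at 126 and 79.3 against 8.14, 25.9 and 14.4 (log2 2.66; edgeR adjusted p = 0.189). Usp24, a deubiquitinase, was at 531 and 557 against 171, 239 and 154 (log2 1.53; edgeR adjusted p = 0.173). Dtx2, a ubiquitin ligase of the Deltex family, was at 103 and 42.5 against 14.1, 18.3 and 13.4 (log2 2.25; edgeR adjusted p = 0.180). These RNA levels were higher in both knockout libraries than in any wild-type library, and the 5hmC ratios of the same genes were 0.799 for Ust, 0.673 for Usp24 and 0.582 for Dtx2.

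Hivep2 had the lowest 5hmC ratio of the 12 genes named by RNA and a higher RNA level in knockout. Its 4 peaks had 7 and 3 counts in knockout against 26 and 98 in wild type (ratio 0.279). The RNA of this zinc-finger transcription factor had knockout RNA at 75 and 53.1 normalised CPM and wild-type RNA at 26.5, 14.9 and 26.1 (log2 1.51; edgeR adjusted p = 0.204). Adgrl2, an adhesion G-protein-coupled receptor, was at 108 and 145 against 50.3, 59.8 and 34.7 (log2 1.39; edgeR adjusted p = 0.199). DESeq2 called all 12 of these genes and edgeR none. The 12 were picked by their p in these same libraries, so the DESeq2 calls add no separate support. DESeq2 called 14% of tested multi-peak genes and 8.22% of all tested genes.

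**Figure D5:**
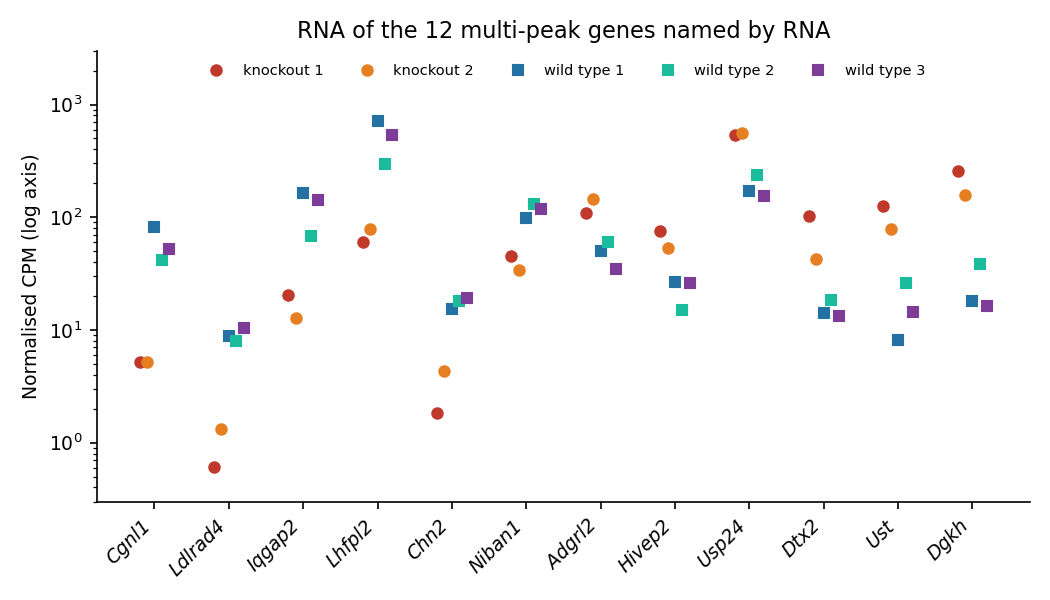
Normalised CPM (log axis) of the 12 multi-peak genes named by their RNA, 1 point for each library, with circles for knockout and squares for wild type. Genes from Cgnl1 to Niban1 have both knockout libraries below all wild-type libraries, and genes from Adgrl2 to Dgkh have them above.

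Of the 17 genes with 7 or more peaks, 10 had RNA levels that overlapped between genotypes and 7 did not. That is near the shares without overlap of all tested multi-peak genes (42.4%) and of all tested genes (36.2%). Lpp had knockout RNA at 116 and 121 normalised CPM and wild-type RNA at 102, 96.2 and 164 (log2 -0.03; edgeR adjusted p = 0.971), although its 5hmC ratio was 0.449. App was at 805 and 594 against 591, 480 and 749 (log2 0.20; edgeR adjusted p = 0.8). Tns3, Prkch, Maml3, Ssh2, Fndc3b, Tiam1, Nsmce2 and Exoc4 also overlapped. Those without overlap, beside Chn2, were Foxp1, at 255 and 222 against 104, 148 and 87.0 (log2 1.08; edgeR adjusted p = 0.238), Aopep, at 51.3 and 46.6 against 152, 93.8 and 122 (log2 -1.33; edgeR adjusted p = 0.199), Atxn1, at 49.7 and 46.6 against 82.9, 70.9 and 62.4 (log2 -0.58; edgeR adjusted p = 0.320), and Arhgap26, Snx29 and Magi2, with log2 changes of 1.75, -1.46 and 0.30 (edgeR adjusted p = 0.265, 0.334 and 0.784). Ubn2 and Zdhhc18, the extremes of the 5hmC ratio, had log2 RNA changes of 0.39 and -0.25.

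The 18 multi-peak genes of MAP kinase, PI3 kinase and phosphatase signalling had 8 higher and 10 lower, with a median log2 change of -0.03. An unadjusted edgeR p below 0.05 was reached by 7 and a DESeq2 call by 6, edgeR calling 0. Over all tested multi-peak genes these shares were 21.8% and 14%, and over all tested genes 13.8% and 8.22%. Beside Dgkh, Prkcb (protein kinase C beta) had knockout RNA at 755.5 and 486 normalised CPM and wild-type RNA at 220.5, 209 and 77.0 (log2 1.88; edgeR adjusted p = 0.238). Rasa3, which inactivates Ras, was at 62.5 and 87.6 against 398, 179 and 191 (log2 -1.77; edgeR adjusted p = 0.235). Both were chosen as examples after their values were seen. Prkcb was higher in both knockout libraries and Rasa3 lower than in any wild-type library. The list's 5hmC ratio over 69 member peaks was 0.692. Over all 85 tested genes of the list, 40 were higher and 45 lower, with 13 at an unadjusted p below 0.05.

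Among transcription factors 3 of 8 were higher and 5 lower in knockout RNA, and edgeR called 0. An unadjusted edgeR p below 0.05 was reached by 2, against 21.8% of tested multi-peak genes and 13.8% of all tested genes. Runx1 had knockout RNA at 111 and 79.0 normalised CPM and wild-type RNA at 141, 145 and 89.4, so the groups overlapped (log2 -0.40; edgeR adjusted p = 0.602). Dnmt3a was at 161 and 162 against 757, 304 and 168, so the wild-type libraries were all higher but spanned a wide range, with library 3 next to the knockout values (log2 -1.34; edgeR adjusted p = 0.435). Nfkb1 was at 328 and 295 against 168, 202 and 152, with both knockout libraries above all wild-type libraries (log2 0.84; edgeR adjusted p = 0.238). The 6 ubiquitin genes had 2 higher and 4 lower, the 3 chromatin genes 1 and 2, and the 3 inflammatory genes 1 and 2, with edgeR calling 0 in each.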

How the data were processed

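The authors deposited raw counts of reads, by peak for 5hmC and by gene for RNA, per the labels. Per the submitters' processing notes, the tools were BWA, CASAVA 1.4, HTSeq, MACS2, STAR and Trim Galore with build GRCm38, and their roles are not told. Peak names in the files show calls on merged libraries of each genotype. The handling of duplicates and strand: not given in the sources used here.

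Peaks were assigned to RefSeq gene bodies (GRCm38.p6) by an overlap of 1 base or more, and a peak in 2 multi-peak genes (13 peaks) counts in both gene sums and once in totals. 5hmC libraries were scaled by TMM over all listed peaks. RNA was fitted with edgeR 4.0.16 (glmQLFit and glmQLFTest, TMM, filterByExpr, two-sided, Benjamini-Hochberg adjustment over all 14851 tested genes, threshold 0.05) in R 4.3.3. DESeq2 1.42.0, limma-voom (limma 3.58.1), other scalings and filters, a replicate block and leaving out each library were alternatives. The steps were tested on simulated data. Normalised CPM divide each count by its TMM-scaled library size, per 1000000. A floor uses 3 counts per library and, like all intervals, covers counting error only. 5hmC libraries held 42489 to 219116 counts in listed peaks.

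The members, gene lists and named genes were chosen with earlier results of these data known. Genes were named by rule: the 12 with the most peaks (ties by summed wild-type counts, which cut a tie of 9 genes at 7 peaks), the 6 densest, the 5 lowest and 5 highest ratios, the 6 higher and 6 lower in RNA by p without overlap and at 1 CPM or more, and members of the transcription factor, TET and RANK lists. Predicted genes and pseudogenes were left out. Promoter windows were those lying wholly inside a member peak, chromosome 18 excepted. One gene list and some genes are not reported here.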

Additional observations from a re-analysis of the deposited data

How the results depend on the processing

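The 5hmC ratio of multi-peak genes (0.677) was 0.506 with total counts, 0.250 with scaling to peaks called in both genotypes, 0.661 with DESeq2 size factors, 0.656 for genes with 4 or more peaks and 0.653 with 5 or more, and 0.672 to 0.682 when any 1 library was left out. It stayed below 1 in each. Peaks in 1 multi-peak gene only, an alternative chosen after seeing the data, gave 0.677. The number of genes with the knockout mean below both wild-type libraries was 276 to 356 over its alternatives. DESeq2 called 47 multi-peak genes in RNA and 1211 of all genes, where edgeR called 0 and 2. For all genes limma-voom called 1, edgeR 0 with total-count scaling, 0 with the replicate block and 4 at a threshold of 0.1, and from 0 to 0 when any 1 library was left out. Each other alternative gave 0 calls among multi-peak genes. Their median log2 change lay between -0.09 and 0.09. Correlations of deviations gave no sign that replicate numbers pair the RNA libraries (0.00 and -0.12 for numbers 1 and 2). The deviations of the 2 knockout libraries mirror each other by construction, so these values cannot exclude pairing. With the replicate block edgeR called 0 multi-peak genes, and 83 had an unadjusted p below 0.05. The median log2 change was then -0.08. No paired analysis of 5hmC was possible because the knockout libraries count as 1 sample and no test was made. The depth of the 5hmC libraries limits single peaks.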
